A study of Caenorhabditis elegans with 31 samples.

Results

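The acr and lgc genes of Caenorhabditis elegans encode subunits of pentameric ligand-gated ion channels, and 74 of them were described here in single-nucleus RNA libraries of whole worms. They were chosen by name alone, as genes called acr or lgc followed by a number. They comprised 21 acr and 53 lgc genes of the 46904 genes listed, of which 24403 had at least 1 unique molecular identifier (UMI, the tag that marks 1 captured RNA molecule). All 74 were matched by gene identifier to the WBcel235 annotation, which lists each as protein coding. The X chromosome held 23 of them, V held 16, IV held 14, II held 9, III held 8 and I held 4. Levels are given as UMIs per 1e6 UMIs (CPM) and are not corrected for gene length, so an order of genes is an order of UMIs captured.

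All libraries were made from worms of strain JK560, whose genotype is fog-1(q253). The labels describe a developed germline and no fertilised embryos in these worms, so embryonic cells lay outside what was sampled. Each library was made from a pooled pellet of whole adults, and no age is stated because the labels give differing times. The 31 libraries comprised untreated P0 worms with sorted nuclei (1 library) or unsorted nuclei (4), and F1 and F3 worms of water, 0.05% ethanol and 0.5% ethanol groups. Water and 0.05% ethanol had 5 libraries in each generation, and 0.5% ethanol had 3. Batch 1 and batch 3 held only P0 worms, batch 2 held F1 and F3 worms of water and 0.05% ethanol, batch 4 held F3 worms and batch 5 held F1 worms. Generation and batch can therefore be separated only within batch 2. The labels do not say which libraries came from separate cultures, so p-values measure the spread between these libraries.

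These channels open a pore when a transmitter binds outside the cell. The acr genes encode relatives of nicotinic acetylcholine receptor subunits, which pass cations and act at neuromuscular junctions and in neurons. The lgc genes are a mixed set that includes anion channels gated by acetylcholine, amines or GABA and many subunits with no known ligand. In nematodes the coelomocytes, scavenger cells of the body cavity, use the related channel homologue cup-4 in endocytosis.

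Members accounted for few of the captured molecules. They took 67208 of 237833993 UMIs, or 283 CPM, with 9502 in acr and 57706 in lgc genes. Library totals ran from 1218248 to 25500166 UMIs. No member lacked UMIs altogether, 33 were seen in every library, and 13 had under 50 UMIs over all libraries, down to 3 for lgc-16. The most UMIs fell on lgc-22 (9546), lgc-34 (7440) and lgc-26 (5127) among the lgc genes. Among the acr genes they fell on acr-18 (2017), acr-16 (1416) and acr-15 (1129).

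Some nuclei carried the same barcode in more than 1 library of a batch. Of 104 pairs of libraries of the same batch, the median pair shared 27.5 barcodes and the highest shared 233, which was 14.6% of the smaller library. Pairs from different batches shared a median of 2 and at most 10. The 3824 nuclei concerned were 4.49% of 85180. The sums per class, the counts of calls and the cluster means of the 58 members described next were computed again without them, a choice made after seeing the data. Of these 58 members, 55 had the same highest cluster, acr-9, acr-20 and lgc-35 had another, and the mean in the original cluster was 0.656 to 1.30 times its former value. Other values, such as shares of nuclei and levels by batch, were not computed again.

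After removal of 2168 likely doublets, 83012 nuclei were grouped into 30 clusters, with the acr and lgc genes kept out of the clustering. Named clusters bear at least 3 markers of a cell type, and unnamed clusters held 53.4 to 61.0% of the nuclei of a group on average. Cluster 17 had 8 of 10 neuronal markers raised and was called neuron-like, as was cluster 10 with 6 of 10. Cluster 26 had 4 of 5 coelomocyte markers raised. Cluster 12 was body wall muscle-like, clusters 3 and 28 pharyngeal muscle-like, cluster 23 epidermis-like and cluster 22 spermatheca-like. Transcripts of muscle were present far outside muscle clusters. The body wall myosin unc-54 reached 6932 CPM in cluster 12 and still 3118 CPM in neuron-like cluster 17, against 456 CPM in germline-like cluster 18. Its part in the levels of other genes was not tested.

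**Figure D1:**
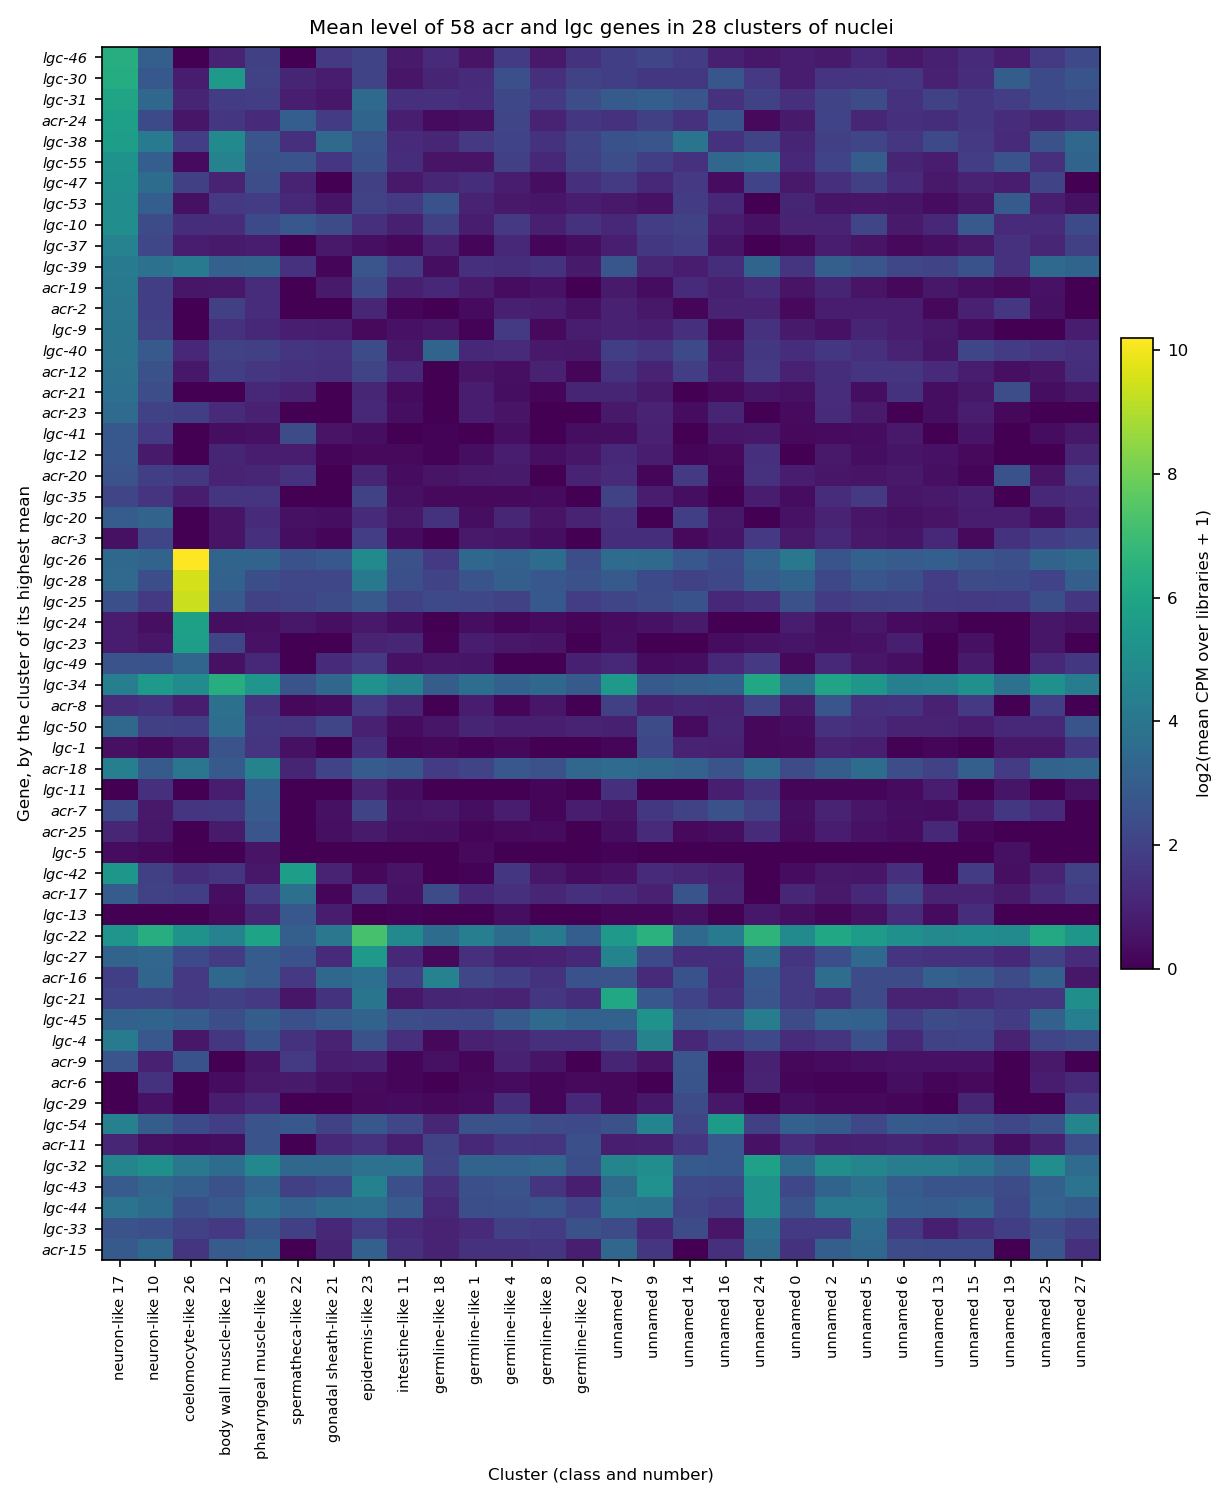
Mean level (CPM over libraries with at least 20 nuclei of the cluster, shown as log2(CPM + 1)) of the 58 genes with at least 10 UMIs in the cluster of their highest mean. Rows are genes, ordered by that cluster, and columns are clusters; 22 genes peak in neuron-like cluster 17 and 6 in coelomocyte-like cluster 26.

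Neuron-like cluster 17 was the most frequent highest cluster in both families. Of the 58 members with at least 10 UMIs in the cluster of their highest mean, 22 were highest in neuron-like cluster 17, namely 7 acr and 15 lgc genes. Coelomocyte-like cluster 26 was the highest for 6, all of them lgc genes. Pharyngeal muscle-like cluster 3 and unnamed cluster 24 were each the highest for 5, body wall muscle-like cluster 12 for 4 and spermatheca-like cluster 22 for 3. No test is given for a cluster against the rest, since clusters and levels come from the same nuclei.

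Summed over the family, lgc genes were highest in coelomocyte-like nuclei, at 2818 ± 2306 CPM (SD, n = 20 libraries with at least 20 such nuclei). Neuron-like nuclei followed at 432 ± 100 CPM (n = 31) and epidermis-like nuclei at 417 ± 100 CPM (n = 14), which overlapped. Body wall muscle-like nuclei stood at 310 ± 90.0 CPM (n = 29) and pharyngeal muscle-like nuclei at 260 ± 54.3 CPM (n = 31). The lowest sums were in gonadal sheath-like nuclei, at 110 ± 62.5 CPM (n = 28), and germline-like nuclei, at 95.6 ± 30.9 CPM (n = 31), whose spreads also overlapped.

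The acr sum had another order. It was 85.6 ± 34.2 CPM in neuron-like and 72.5 ± 26.4 CPM in pharyngeal muscle-like nuclei (n = 31 each). The spreads between libraries overlapped, and the difference was not tested. At clustering resolution 2 the order of these classes turned, with 109 CPM in neuron-like and 135 CPM in pharyngeal muscle-like nuclei. Epidermis-like nuclei gave 63.3 ± 34.1 CPM (n = 14) and body wall muscle-like nuclei 51.4 ± 27 CPM (n = 29). Coelomocyte-like nuclei, the highest for lgc genes, gave only 36.8 ± 26.4 CPM of acr (n = 20). Intestine-like nuclei were lowest at 17.6 ± 11.4 CPM (n = 31). Without the shared barcodes the lgc sum in coelomocyte-like nuclei was 2837 CPM, and the neuron-like sums were 439 CPM for lgc and 90.2 CPM for acr genes.

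Several channels with known ligands were highest in neuron-like cluster 17. Within cluster 17 the sums were 748 CPM for lgc and 182 CPM for acr genes. The acetylcholine-gated anion channel subunit lgc-46 ran from 0 through a median of 69.1 to 191 CPM over 25 libraries, with a mean of 81.1 ± 50.8. The next highest of the clusters, neuron-like cluster 10, had 7.50 ± 6.34 CPM (n = 31), and cluster 17 was the highest cluster in 23 libraries. A UMI of lgc-46 was seen in 7.11% of 1716 cluster 17 nuclei (exact 95% interval 5.94 to 8.43%, median depth 781.5 UMIs). In germline-like clusters, which should lack a neuronal gene, the share was 0.184% at a median depth of 958 UMIs. Its relative lgc-47 had 34.1 ± 32.0 CPM in cluster 17 and 11.3 ± 8.78 CPM in cluster 10. On the other strand, acsd-1 overlaps lgc-46 and had 37.1 CPM in cluster 17, and F36G3.3 overlaps lgc-47 and had 22 CPM there. Strand use in counting is not given in the sources used here, so the levels of members that overlap another gene are uncertain.

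Other channels with known ligands that were highest in cluster 17 included lgc-55, lgc-53, lgc-37 and lgc-38. The tyramine-gated chloride channel gene lgc-55 had 35.3 ± 27 CPM in cluster 17 and 21.9 ± 25.9 CPM in body wall muscle-like cluster 12 (n = 29), which overlapped. The dopamine-gated channel gene lgc-53 had 30.8 ± 39.5 CPM in cluster 17 against 7.34 ± 6.35 CPM in cluster 10. The GABA-gated channel subunit genes lgc-37 and lgc-38 had 22.1 ± 17.9 and 51.4 ± 44.9 CPM in cluster 17. For lgc-38 the second cluster was body wall muscle-like, at 27.6 ± 29.2 CPM. The collagen gene col-8 overlaps lgc-38 on the other strand and reached 1656 CPM in cluster 17, so the level of lgc-38 is uncertain.

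A pair of patterns stood among the lgc genes with no established ligand. The first was lgc-31, which ran from 8.97 through 52.1 to 164 CPM in cluster 17 and was seen there in every one of 25 libraries. Its next cluster, epidermis-like cluster 23, had 10.1 ± 14.3 CPM (n = 14). The gene F21A3.3 overlaps lgc-31 on the other strand and had 18.5 CPM in cluster 17, so the lgc-31 level is uncertain. The second was lgc-30, at 78.6 ± 59.6 CPM in cluster 17 and 44.9 ± 51.7 CPM in body wall muscle-like cluster 12, which overlapped. In unnamed cluster 19, next in order, lgc-30 had a mean of 7.0 CPM. The gene F58H7.1 overlaps lgc-30 on the other strand and had 9.05 CPM in cluster 17, so the lgc-30 level is uncertain as well. Cluster 17 held 19.8% of the UMIs of lgc-30. With all deposited nuclei kept, and at clustering resolution 2, its highest class was neuron-like, at 16 and 25.1 CPM, in place of body wall muscle-like.

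**Figure D2:**
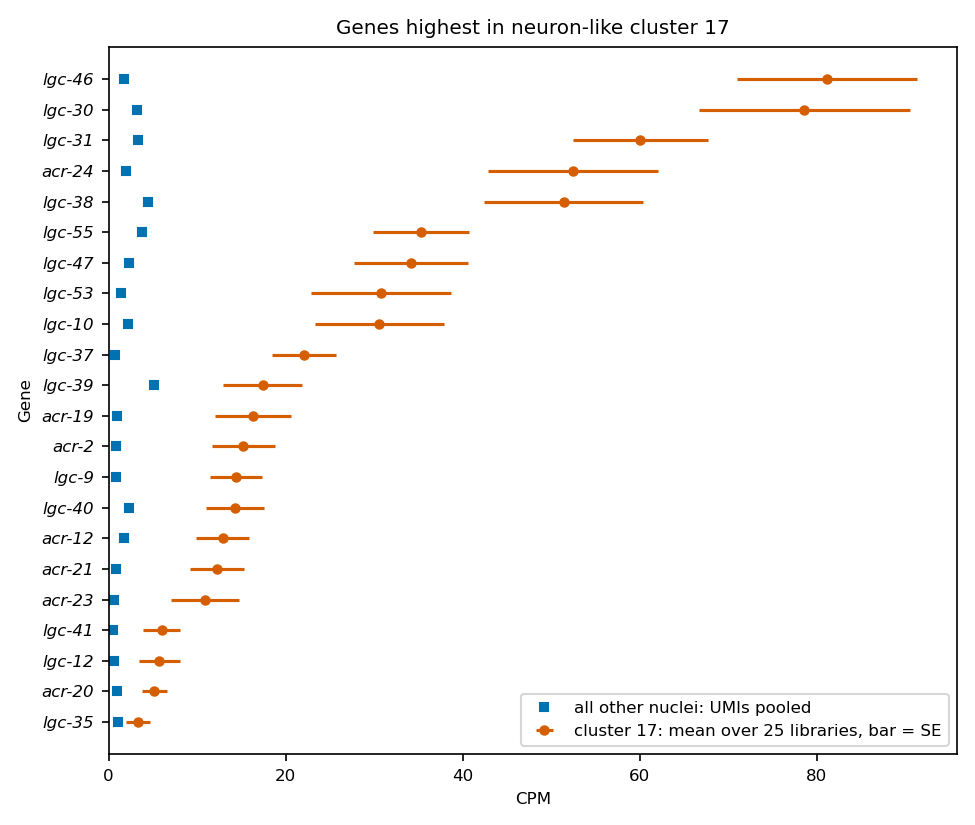
CPM of the 22 genes whose highest mean was in neuron-like cluster 17, as the mean over 25 libraries with its SE (circles), and in all other nuclei with UMIs pooled (squares). lgc-46 stands at 81.1 CPM against 1.77 CPM in the other nuclei.

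Nicotinic subunits of motor neurons were captured thinly. The gene acr-2, a subunit of the receptor that sustains motor neuron activity, had 15.2 ± 17.7 CPM in cluster 17 and rested on 32 UMIs there. Its partner acr-12 had 12.9 ± 15.1 CPM there, from 38 UMIs. The neighbouring gene acr-3 on the X chromosome had no clear peak, with 3.35 ± 4.46 CPM in cluster 10 and 3.33 ± 4.56 CPM in unnamed cluster 27. Of the group around deg-3, which encodes a subunit of a choline-responsive channel, acr-24 was the most captured in cluster 17. It ran from 0 through 52.1 to 213 CPM there, against 8.71 ± 13.3 CPM in cluster 23. The betaine receptor gene acr-23 had 10.9 ± 19.3 CPM in cluster 17, with a median library at 0.

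Muscle held a second set of nicotinic genes. In pharyngeal muscle-like cluster 3, acr-18 of the deg-3 group ran from 0 through 21.9 to 55 CPM over 31 libraries. Cluster 17 had 20.0 ± 21.9 CPM of it, so the spreads between libraries overlapped. The genes lgc-11 and acr-25 were sparser but more restricted, since cluster 3 took 64.6% of all UMIs of lgc-11 and 61.6% of those of acr-25. A UMI of lgc-11 was seen in 2.33% of cluster 3 nuclei (median depth 1725.5 UMIs) and in 0.0115% of germline-like nuclei (958 UMIs). The acr-7 mean was 6.65 ± 7.60 CPM in cluster 3, and 41.1% of its UMIs fell there. The gene klp-3 overlaps acr-7 on the other strand and had 28.8 CPM in cluster 3, so this level is uncertain.

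Body wall muscle-like cluster 12 had acr-8, a relative of the muscle receptor subunit lev-8, at 12.6 ± 11.4 CPM (n = 29). The body wall muscle-like value was 6.73 CPM with all deposited nuclei kept, and the overlapping gene cdk-11.2 on the other strand had 13.5 CPM in cluster 12, so it is uncertain. The serotonin-gated cation channel gene lgc-50 had 11.5 ± 12.6 CPM in cluster 12 and 9.72 ± 17.1 CPM in cluster 17, which overlapped. The gene trd-1 overlaps lgc-50 on the other strand and had 33.1 CPM in cluster 12, so the lgc-50 level is uncertain. The orphan lgc-34 ran from 26.6 through 75.2 to 161 CPM in cluster 12. It was broadly captured, with 68.9 ± 34.7 CPM in unnamed cluster 24 and 61.4 ± 18.6 CPM in unnamed cluster 2, and it was the highest in cluster 12 in 14 libraries. The homomeric muscle nicotinic receptor gene acr-16 did not peak in muscle. Its highest mean was in germline-like cluster 18, at 21.9 ± 27.3 CPM (n = 26), but the overlapping gene F25G6.8 on the other strand was also highest there, at 105 CPM, so the acr-16 value is uncertain. By class, where the germline-like clusters are joined, acr-16 was highest in epidermis-like nuclei, at 12.4 CPM. With UMIs pooled over all libraries it was highest in gonadal sheath-like nuclei, at 9.76 CPM.

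In spermatheca-like cluster 22, lgc-42 ran from 0 through 37.0 to 160 CPM over 22 libraries, with a mean of 50.2 ± 39.4. Neuron-like cluster 17 had 40.8 ± 41.9 CPM of it, while unnamed cluster 27, next in order, had 3.07 CPM. The deg-3 group member acr-17 had 12.7 ± 15.4 CPM in cluster 22 and 6.81 ± 8.64 CPM in cluster 17. For both genes the levels in these clusters overlapped. Cluster 22 held 37.7% of the UMIs of lgc-42 and 8.18% of those of acr-17. The spermatheca-like value of lgc-42 was 12.7 CPM with all deposited nuclei kept and 23.3 CPM at clustering resolution 2. That of acr-17 was 4.90 CPM with all deposited nuclei kept. With the members among the clustering genes there was no spermatheca-like class, so neither gene could be highest in it. Both were then highest in neuron-like nuclei, at 7.62 CPM for lgc-42 and 3.25 CPM for acr-17.

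Other members, several of them with no established ligand, were highest in epidermis-like or unnamed clusters. The gene with the most UMIs, lgc-22, ran from 57.0 through 151 to 226 CPM in epidermis-like cluster 23 (n = 14). It was seen in 25.1% of cluster 23 nuclei (median depth 1693 UMIs) and in 2.52% of germline-like nuclei (958 UMIs), and cluster 23 held 8.28% of its UMIs. Unnamed cluster 24, led by gst-41 and acs-3, was the highest for lgc-32 at 56.1 ± 28.9 CPM, for lgc-43 at 37.2 ± 32.6 CPM and for lgc-44 at 36.1 ± 29.9 CPM (n = 20). Cluster 24 held 4.32% of the UMIs of lgc-32. The nicotinic subunit gene acr-15 had 10.6 ± 11.3 CPM there but 9.66 ± 6.35 CPM in unnamed cluster 5, so it had no clear peak. In unnamed cluster 9, lgc-45 had 35.1 ± 25.9 CPM, but W10G11.1 and W10G11.2 on the other strand peaked there too. In unnamed cluster 16 the same held for lgc-54, of the amine-gated group, at 46.3 ± 32.9 CPM, and its partner T15B7.1 at 257 CPM.

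The 5 members with the largest ratio of their level in the highest cluster to that in all other nuclei were lgc-25 (242), lgc-24 (183), lgc-28 (157), lgc-26 (150) and lgc-23 (128), and all were highest in coelomocyte-like cluster 26. The next, lgc-42, had a ratio of 49.5. Over 20 libraries lgc-26 ran from 199 through 472 to 3197 CPM there, with a mean of 1168 ± 1110. The next cluster, epidermis-like cluster 23, had 27.6 ± 42.5 CPM. For lgc-28 the range was 130 through 481 to 1926 CPM, against 16.4 ± 22 CPM in cluster 23. For lgc-25 it was 147 through 384 to 2016 CPM, against 6.22 ± 9.67 CPM in body wall muscle-like cluster 12. Cluster 26 was the highest cluster for each of these genes in 20 of 20 libraries. It held 60.9% of all lgc-26 UMIs, 61.9% of those of lgc-28 and 71.5% of those of lgc-25, although it made up 741 of 83012 nuclei.

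The same nuclei often carried several of these genes. A UMI of lgc-26 was seen in 56.8% of the 741 nuclei (exact 95% interval 53.2 to 60.4%), of lgc-28 in 49.9% and of lgc-25 in 46.2%, at a median depth of 1486 UMIs. In germline-like nuclei, at a median depth of 958 UMIs, the shares were 1.28%, 0.844% and 0.586%. All 3 were seen together in 29.3% of coelomocyte-like nuclei and in 0.0352% of the 82271 other nuclei. Intervals cover counting error only.

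The neighbouring X-linked genes lgc-23 and lgc-24 were captured in the same cluster at lower levels. They had 50.4 ± 46.3 and 54.2 ± 55.9 CPM in cluster 26 (n = 20). Their second clusters had 3.34 CPM of lgc-23 and 0.781 CPM of lgc-24. Of 11 pairs of members that are neighbours on a chromosome, 5 had at least 10 UMIs of each gene in its highest cluster, and lgc-23 with lgc-24 was the only one of these in which that cluster was the same. The acetylcholine-gated anion channel gene lgc-49 also had its highest mean in cluster 26, at 8.97 ± 19.9 CPM, but rested on 24 UMIs.

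The level of the coelomocyte genes differed by batch. In the 8 libraries of batches 1 to 3, lgc-26 ran from 818 through 2301 to 3197 CPM in cluster 26. In the 12 libraries of batches 4 and 5 it ran from 199 through 406 to 518 CPM, so the libraries did not overlap. The corresponding means were 1313 ± 470 and 349 ± 192 CPM for lgc-28 and 1218 ± 562 and 279 ± 136 CPM for lgc-25. For both of these the libraries overlapped, since the lowest of batches 1 to 3 stood at 373 and 402 CPM and the highest of batches 4 and 5 at 817 and 578 CPM. Only batches 1 to 3 held untreated P0 libraries and only batches 4 and 5 held 0.5% ethanol, so these sides also differ in generation and treatment. This split of the batches was made after the values were seen and is given without a test.

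Other genes moved along with it. The coelomocyte marker cup-4 was 3819 ± 1429 CPM in batches 1 to 3 and 774 ± 307 CPM in batches 4 and 5. The marker unc-122 was 1462 ± 568 and 280 ± 137 CPM. The yolk protein gene vit-2, a product of the intestine, went the other way, at 6694 ± 1797 and 13186 ± 3517 CPM. The ratio of lgc-26 to cup-4 was 0.640 ± 0.112 and 0.511 ± 0.133, that of lgc-28 was 0.355 ± 0.0999 and 0.453 ± 0.161, and that of lgc-25 was 0.347 ± 0.178 and 0.380 ± 0.171. The libraries overlapped in each ratio. The cluster held 1.13 ± 0.386% and 0.857 ± 0.193% of nuclei. The part of any of these in the difference was not tested.

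**Figure D3:**
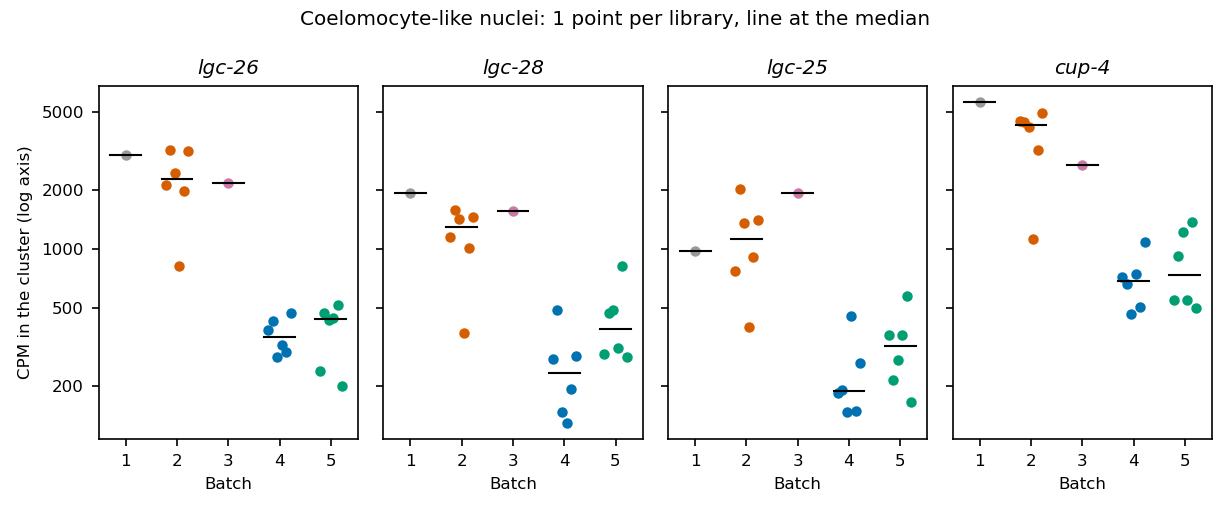
CPM (log axis) of lgc-26, lgc-28, lgc-25 and the marker cup-4 in coelomocyte-like nuclei, by batch, with 1 point per library and a line at the median of the batch. For lgc-26 the batch 1 to 3 libraries lie between 818 and 3197 CPM and the batch 4 and 5 libraries between 199 and 518 CPM.

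Whole-library levels of some members also differed by batch. In sums over whole libraries, fewer cells of a type and less RNA per cell cannot be told apart. The libraries of batch 2 lay wholly above those of batches 4 and 5 for 4 of 49 members tested, lgc-21, lgc-26, lgc-27 and lgc-28, where the same held for 2.46% of 14217 genes. They lay wholly below for 0 of 49 members and for 1.05% of all genes. Family sums of lgc genes were 320 ± 45.7 CPM in batch 2 (n = 8), 194 ± 11.2 CPM in batch 4 (n = 9) and 191 ± 31.5 CPM in batch 5 (n = 9).

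Of these genes, lgc-21 has no established ligand. It ran from 9.73 through 26.3 to 33.5 CPM in batch 2 (n = 8), from 0.400 through 1.74 to 6.78 CPM in batch 4 (n = 9) and from 0 through 0.892 to 2.46 CPM in batch 5 (n = 9). Of its UMIs, 72.3% came from unnamed cluster 7, which is led by abu-1 and the collagen genes col-161 and col-162. That cluster held 12.7 ± 3.97% of nuclei in batch 2, 2.37 ± 1.12% in batch 4 and 0.608 ± 0.282% in batch 5. Within cluster 7, lgc-21 was 124 ± 30.9 CPM in batch 2 (n = 8), 42.1 ± 23.4 CPM in batch 4 (n = 9) and 44.6 ± 34.6 CPM in batch 5 (n = 4). The highest batch 5 library, at 84.4 CPM, overlapped batch 2, whose lowest library stood at 75.8 CPM. Both the share of these nuclei and the mean level within them were thus higher in batch 2 than in batches 4 and 5.

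The gene lgc-27 showed a like split, with batch 2 libraries from 8.87 to 29.6 CPM and those of batches 4 and 5 from 0 to 5.56 CPM. Epidermis-like cluster 23, its highest cluster, held 3.29 ± 1.23% of nuclei in batch 2, 0.576 ± 0.332% in batch 4 and 0.260 ± 0.143% in batch 5. Within cluster 23, lgc-27 was 57.5 ± 39.4 CPM in batch 2 (n = 8) and 38.8 ± 47.1 CPM in batch 4 (n = 4), which overlapped. Unnamed cluster 7, whose share of nuclei is given above, also carried lgc-27. It had 41.6 ± 26.4 CPM in batch 2 (n = 8) and 15.4 ± 18.7 CPM in batch 4 (n = 9), which overlapped. The part of each cluster in the split was not tested. By contrast lgc-22, also highest in cluster 23, overlapped between these batches.

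**Figure D4:**
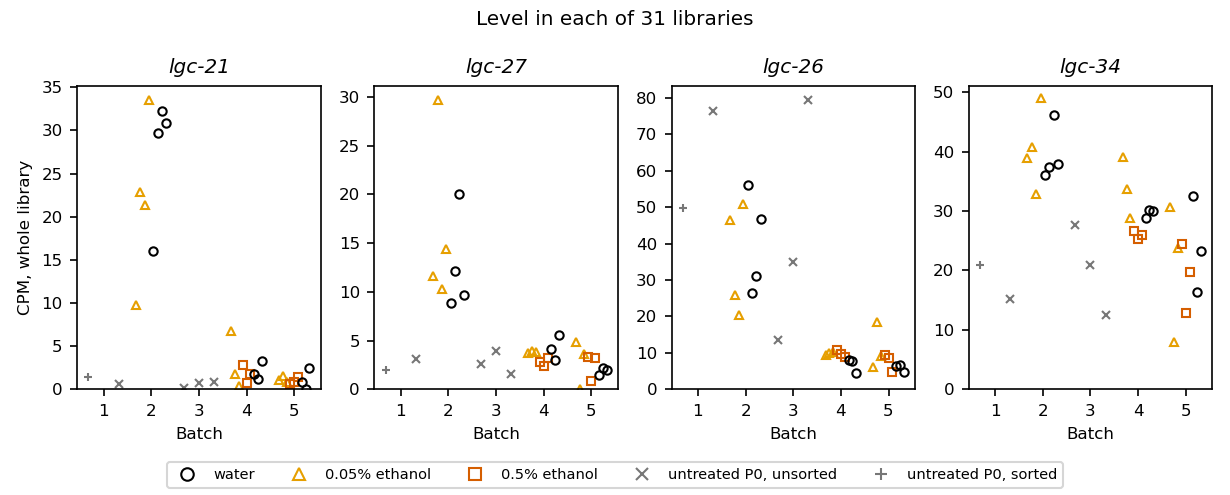
Whole-library CPM of lgc-21, lgc-27, lgc-26 and lgc-34 in each of 31 libraries, by batch, with symbols for water, ethanol and untreated libraries. The batch 2 libraries of lgc-21 lie between 9.73 and 33.5 CPM, above all those of batches 4 and 5, while those of lgc-34 overlap the batch 4 libraries.

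Ethanol groups were compared with water within batch and generation, which asks whether these genes differed between worms of the ethanol and water groups of 1 generation. The labels name the group and do not say in which generation the worms met ethanol. Summed lgc genes gave 243 ± 72.9 CPM in water F1, 249 ± 73.5 CPM in 0.05% ethanol F1 (n = 5 each) and 178 ± 27.7 CPM in 0.5% ethanol F1 (n = 3). In F3 they gave 245 ± 74.1, 249 ± 83.9 and 189 ± 6.05 CPM. Summed acr genes ran from 35.8 to 46.5 CPM across these 6 groups. The 0.5% ethanol groups had no batch 2 library, so these group means differ in batch as well as in dose.

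No member was called in any of the 4 comparisons of ethanol with water over whole libraries. With edgeR's quasi-likelihood test and Benjamini-Hochberg adjustment over 14217 genes, 0 of 49 members tested passed an adjusted p of 0.05, and 0% of all genes did so. At an unadjusted p under 0.05 the members numbered 1 and 0 in 0.05% ethanol F1 and F3, and 1 and 4 in 0.5% ethanol F1 and F3. All genes at that level numbered 134, 143, 274 and 577. DESeq2 called 0 members in each comparison. The median log2 change of the tested members was 0.01 in both 0.05% ethanol comparisons, -0.13 in 0.5% ethanol F1 and -0.12 in 0.5% ethanol F3, where the medians of all genes were -0.01, 0.01, -0.02 and 0.00. The standard error of a member's log2 change had a median of 0.34 to 0.49, which limits what these libraries could show.

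In 0.05% ethanol F1 the smallest p was that of lgc-27. The batch 2 libraries gave 11.7 and 29.6 CPM, against 8.87 and 12.1 CPM in water. Those of batch 5 gave 4.85, 0 and 3.67 CPM, against 1.49, 2.23 and 2.00 CPM. Libraries overlapped in both batches, and the log2 change was 0.91 ± 0.35 (SE, adjusted p = 1.0 by edgeR). Without 0.05% ethanol F1 batch 2 replicate 2 it was 0.56.

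In 0.05% ethanol F3 it was that of lgc-31. Batch 4 libraries gave 3.99, 4.29 and 5.196 CPM, against 3.69, 2.84 and 3.11 CPM in water, and those of batch 2 gave 4.03 and 5.81 CPM against 3.66 and 5.34 CPM. The batch 4 libraries did not overlap while the batch 2 libraries did. The log2 change was 0.36 ± 0.21 (SE, adjusted p = 1.0 by edgeR).

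In 0.5% ethanol F1 it was that of lgc-9, a neuron-like cluster gene. Its libraries gave 0.648, 0.856 and 0.181 CPM, against 1.78, 2.97 and 0.614 CPM in water of batch 5, which overlapped. The log2 change was -1.51 ± 0.60 (SE, adjusted p = 1.0 by edgeR), on 1 to 12 UMIs per library. It was lower in each of the 3 pairs of same-numbered libraries, and with the replicate block the log2 change was -1.47.

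In 0.5% ethanol F3 it was that of lgc-33. Its libraries gave 3.06, 2.45 and 1.92 CPM, against 4.72, 2.63 and 5.23 CPM in water of batch 4, which overlapped. The log2 change was -0.86 ± 0.31 (SE, adjusted p = 0.977 by edgeR). It was lower in each of the 3 same-numbered pairs, and the replicate block gave -0.81. The other members at an unadjusted p under 0.05 were acr-18 (-0.60), lgc-10 (-0.84) and lgc-11 (-1.31), all lower in ethanol on the log2 scale.

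**Figure D5:**
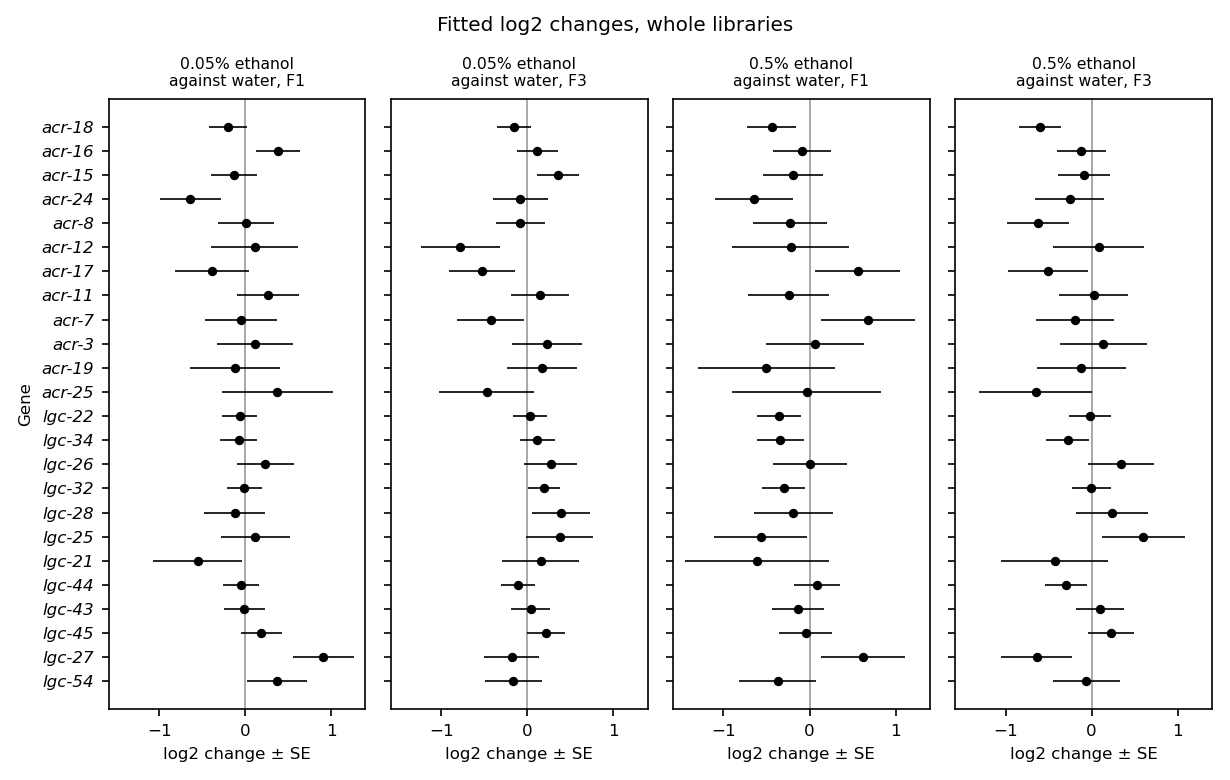
Fitted log2 change with its SE (edgeR, whole libraries) of the 12 acr and 12 lgc genes with the most UMIs, for each dose and generation against water. No point passed an adjusted p of 0.05; the highest value in the first panel is that of lgc-27, at 0.91.

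Within cell classes the counts were thinner still. Over 37079 pairs of gene and class, 29 involved a member, and 0 of these were called in any of the 4 comparisons by edgeR, as were 0% of all pairs. At an unadjusted p under 0.05 the member pairs numbered 2, 3, 1 and 0, and all pairs 922, 1115, 1098 and 905. Neuron-like nuclei contributed 10 members, pharyngeal muscle-like nuclei 9 and germline-like nuclei 7. A class was tested only where each group kept at least 2 libraries with 20 such nuclei in each of its batches. Coelomocyte-like nuclei did not meet this, so the effect of ethanol on lgc-25, lgc-26 and lgc-28 in those nuclei was not tested.

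The lowest p was that of lgc-27 in pharyngeal muscle-like nuclei of 0.5% ethanol F1. It had 16 UMIs over 3 libraries, at 11.4, 19.1 and 20.1 CPM, against 1 UMI over the 3 water libraries of batch 5, the highest of which had 1.59 CPM. These libraries did not overlap, and the log2 change was 3.14 ± 0.95 (SE, adjusted p = 1.0 by edgeR). In F3 the same class had 4.61 ± 4.59 CPM at this dose and 1.78 ± 0.629 CPM in water of batch 4 (n = 3 each). In water F1 of batch 2 the 2 libraries stood at 9.41 and 43.6 CPM, so water alone spanned a wider range between batches than this difference.

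In 0.05% ethanol F1 the smallest p within classes was that of lgc-32 in germline-like nuclei. The batch 2 libraries gave 11.1 and 12.5 CPM, against 3.01 and 6.42 CPM in water. Batch 5 gave 6.89 ± 1.05 CPM against 4.14 ± 1.51 CPM (n = 3 each). The log2 change was 1.00 ± 0.43 (SE, adjusted p = 1.0 by edgeR), and these nuclei are among the lowest for the family. In F3 lgc-32 had the smallest p in pharyngeal muscle-like nuclei, with a log2 change of 0.54 ± 0.23 (SE, adjusted p = 1.0 by edgeR), which was 0.23 without 0.05% ethanol F3 batch 2 replicate 2. In 0.5% ethanol F3 the smallest was that of lgc-31 in neuron-like nuclei, with 0.86 ± 0.51 (SE, adjusted p = 1.0 by edgeR).

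F3 and F1 worms were compared within batch 2, across water and 0.05% ethanol. Of 45 members tested, 0 were called by edgeR, against 0.330% of 13633 genes, and 1 had an unadjusted p under 0.05, as had 1859 of all genes. DESeq2 called 0 members here too. Of these members 32 were higher in F3, with a median log2 change of 0.14 where that of all genes was -0.01. The member with the smallest p was lgc-21. Its F1 libraries gave 16, 29.7, 9.73 and 22.9 CPM and its F3 libraries 32.2, 30.9, 21.4 and 33.5 CPM, which overlapped. The log2 change was 0.64 ± 0.29 (SE, adjusted p = 0.367 by edgeR). With no filter on low counts this gene was called, at a log2 change of 0.67 and an adjusted p of 0.0235 by edgeR, as were 1048 of all genes.

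Other genes of the pathway gave a like count. The list held nicotinic subunits, assembly and clustering factors, further channels of the same superfamily and enzymes and transporters of transmitters, and 45 were among the features. Of 38 tested over whole libraries, 0 were called by edgeR in each of the 5 comparisons, and at an unadjusted p under 0.05 they numbered 2, 1, 2, 4 and 2. The nicotinic receptor chaperone ric-3 had log2 changes of -0.50 ± 0.20 in 0.5% ethanol F1 and -0.40 ± 0.18 in F3 (SE, adjusted p = 1.0 and 0.977 by edgeR).

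Sorted and unsorted P0 nuclei could be set side by side in 1 library each, so intervals are exact Poisson intervals of the counts. The sorted library had 32.4 CPM of acr genes (28.2 to 37.1) and the unsorted library 20.7 CPM (17 to 25.1). For lgc genes the values were 262 CPM (249 to 275) and 319 CPM (304 to 335). Among the coelomocyte genes, lgc-25 had 16.4 CPM (13.4 to 19.8) in the sorted and 60.2 CPM (53.7 to 67.3) in the unsorted library. For lgc-28 the intervals overlapped, at 35.2 CPM (30.8 to 40.05) and 42.2 CPM (36.8 to 48.2). With 1 library of each kind, these values compare libraries and not the sort.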

How the data were processed

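The authors deposited raw UMI counts per gene and nucleus as sparse matrices, 1 per library. Cell Ranger and the build ce10 are named per the submitters' processing notes, while the matrices name software 3.0.2, per the file headers; annotation and strand use are not given in the sources used here, so no coordinates are printed. All value columns were used (0 unmapped). The smallest nucleus held 372 UMIs, and 0 nuclei fell under a minimum of 300. The members and gene lists were chosen with earlier results of these data known.

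Likely doublets were removed at 0.8% per 1000 nuclei. Counts were log-normalised, and 2000 variable genes, without members, gave 30 principal components corrected for library. A graph of 15 neighbours was clustered at resolution 1 with leidenalg 0.10.2, igraph 0.11.9, scikit-learn 1.9.0 and numpy 2.4.6, in place of the planned scanpy. Clusters of at least 50 nuclei were named from markers by limits set after the data were seen: a mean log2 fold of at least 1.0, at least 0.8 above the next class, and 3 markers raised 1.5 times and seen in 10% of nuclei.

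CPM was computed per library and cluster with at least 20 nuclei. UMIs summed per library, or per library and class, were tested two-sided with edgeR 4.0.16 (quasi-likelihood, TMM, filterByExpr; R 4.3.3), with an intercept per batch and generation. A class was tested only with at least 2 such libraries per group and batch. The tests were tried on simulated data. Calls needed a Benjamini-Hochberg adjusted p below 0.05. DESeq2 1.42.0 was an alternative. Libraries held 1218248 to 25500166 UMIs. Intervals and floors cover counting error only.

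Same-numbered libraries deviated together in 0.05% ethanol F1 (r from 0.544 to 0.758, 5 pairs), 0.5% ethanol F1 (0.595 to 0.692, 3 pairs) and 0.5% ethanol F3 (0.201 to 0.636, 3 pairs). Deviations were taken from batch and group means, so in each comparison with water the pairs of batch 2 share the same r by construction. The main fits did not use the pairing, and only the alternative fit with the replicate block did. This pairing comes from the data and is not stated in the labels.

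The genes named are the 12 acr and 12 lgc genes with the most UMIs, the 3 highest members of each named class, and in each comparison those called and the one with the smallest p. Others named as examples of a channel type or cluster were chosen after their values were seen.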

Additional observations from a re-analysis of the deposited data

Results flagged for a closer look

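The summed level of all lgc genes in 0.05% ethanol F3 had 1 library far from the other 4 of its group: batch 2 replicate 2 stood at 394.0 CPM, and the gap to the next library was a large part of the whole range. Such gaps arise by chance in about 1 group of 20 where the libraries are alike, and 35 groups were examined. This group joins libraries of batch 2 and batch 4, and lgc sums were higher in batch 2, so that rate does not apply to it. The other batch 2 library of the group stood at 246 CPM and those of batch 4 ran from 185 to 213 CPM.

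The log2 change of lgc-10 in 0.5% ethanol against water was 0.69 in F1 and -0.84 in F3. In F1 the libraries gave 3.24, 4.28 and 3.80 CPM against 3.12, 1.49 and 1.23 CPM in water, and in F3 they gave 1.20, 1.40 and 1.54 CPM against 1.77, 3.04 and 3.27 CPM. All libraries thus lay above water in one generation and below it in the other. These values rest on few counts, since lgc-10 had 591 UMIs over all 31 libraries. The gene Y73B6BL.31 overlaps lgc-10 on the other strand and had 39.2 CPM in cluster 17, so the lgc-10 level is uncertain. The difference between generations was not tested, and it coincides with a difference in batch (batch 5 and batch 4). It was the only such gene among 98 pairs of member and dose examined.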

How the results depend on the processing

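Members called stayed at 0 in all 9 comparisons with other size factors, no filter, the replicate block and no shared barcodes, in the 5 over whole libraries also with DESeq2 and all deposited nuclei, in the 4 of ethanol over whole libraries with only their own libraries, and in the 4 within classes with at least 50 nuclei per class, except that 1 member, lgc-21, was called in F3 against F1 with no filter on low counts, and the cause was not tested. Leaving out each library in turn gave from 0 to 0 members in all 9 comparisons. With the replicate block 0 members were called, while calls over all genes went from 0 to 2 in 0.5% ethanol F3 and from 45 to 573 in F3 against F1. In that comparison, which the numbers did not pair (r from 0.055 to 0.538), all-gene calls were 1048 with no filter, 455 with DESeq2, 20 without shared barcodes, a choice made after seeing the data, and 0 to 140 with a library left out. Calls over all genes were also 10 in 0.5% ethanol F3 with only its own libraries fitted, and 23, 70, 55 and 63 in the 4 comparisons within classes with no filter, where the main counts were 0; the cause was not tested. In 0.05% ethanol F3 the numbers did not pair either (r from -0.03 to 0.345). The summed acr level in pharyngeal muscle-like nuclei was 135 CPM at clustering resolution 2 (72.5 CPM at resolution 1), above the 109 CPM of neuron-like nuclei, which changes the nuclei in the class. Of 135 recomputations of a member's highest class, 20 moved, among acr-3, acr-15, acr-16, acr-17, lgc-30, lgc-32, lgc-38, lgc-42, lgc-44 and lgc-45. The moves of lgc-42 and acr-17 came with the members among the clustering genes, where there was no spermatheca-like class. Without a change of class, pharyngeal muscle-like values at resolution 2 were 56.3 CPM for acr-18 (22.4 at resolution 1), 15.4 for acr-25 (5.43) and 13.9 for acr-7 (6.78), and epidermis-like values with all deposited nuclei were 94.9 CPM for lgc-22 (149) and 26.5 for lgc-27 (43.9). Depth limits these results, since the acr genes rested on 9502 UMIs over 31 libraries.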
